A study of Homo sapiens with 8 samples.

Results

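The lipid carriers examined here were 7 genes of the 18955 in the table, namely the fatty acid binding proteins FABP4, FABP5 and FABP3, the apolipoproteins APOE and APOC1, the lipid droplet protein PLIN2 and the fatty acid receptor CD36. They were taken by name, with earlier values from these cells known, and FABP4, APOE and APOC1 in particular were selected on their level in JQ1+paclitaxel against JQ1 alone. For these 3 genes the levels below are therefore a description, with no test. Of the 7 genes, 4 reached 5 CPM (UMIs of the gene scaled to a common library total) in at least 2 libraries (FABP4, FABP5, APOE and APOC1), and PLIN2, CD36 and FABP3 did not.

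SUM159 is a long-established line from a triple-negative breast carcinoma, and the cells used carried a lentiviral library of DNA barcodes. All 8 libraries came from these barcoded cells: 1 taken before treatment and 7 grown for at most 18 passages in DMSO, 0.6 nM paclitaxel, 160 nM palbociclib, 100 nM JQ1 (2 libraries, JQ1-A and JQ1-B), JQ1 with paclitaxel or JQ1 with palbociclib at the same doses. JQ1 displaces BET bromodomain proteins from chromatin, paclitaxel stabilises microtubules and palbociclib blocks CDK4 and CDK6. DMSO, paclitaxel, JQ1-A and JQ1+paclitaxel formed one experiment; palbociclib, JQ1-B and JQ1+palbociclib formed the other, which had no vehicle library here. Each library mixed the 3 parallel cultures of its treatment, except that 1 JQ1+palbociclib culture had died out and 2 were left, so a change carried by a single culture cannot be told apart from one shared by all. The pair of JQ1 libraries was the only treatment measured more than once, and whatever separated JQ1+paclitaxel from the others as a library cannot be told apart from its treatment.

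Fatty acid binding proteins are small cytosolic proteins that hold long-chain fatty acids and carry them to membranes, enzymes and nuclear receptors. FABP4 is best known from adipocytes and macrophages, where it is a classic target of the receptor PPARG, while FABP5 is the epidermal form and is common in carcinoma cells. APOE and APOC1 are secreted apolipoproteins that coat lipoprotein particles. Their genes are neighbours and are known to share downstream enhancers that respond to LXR, the oxysterol receptor. PLIN2 coats lipid droplets in most cell types, and CD36 takes up fatty acids at the plasma membrane.

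The 250 bases before the first start site of APOE (chr19:44905546-44905795, plus strand, GRCh38.p14) and before that of APOC1 (chr19:44914422-44914671, plus strand) are shown, from RefSeq, because both genes appeared in the same cells. Capitals mark GC boxes, GGGCGG on either strand.
APOE: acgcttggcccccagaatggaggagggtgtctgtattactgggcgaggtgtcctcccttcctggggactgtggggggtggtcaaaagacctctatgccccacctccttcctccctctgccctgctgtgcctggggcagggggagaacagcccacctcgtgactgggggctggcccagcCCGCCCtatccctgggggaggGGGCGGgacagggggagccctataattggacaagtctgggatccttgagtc
APOC1: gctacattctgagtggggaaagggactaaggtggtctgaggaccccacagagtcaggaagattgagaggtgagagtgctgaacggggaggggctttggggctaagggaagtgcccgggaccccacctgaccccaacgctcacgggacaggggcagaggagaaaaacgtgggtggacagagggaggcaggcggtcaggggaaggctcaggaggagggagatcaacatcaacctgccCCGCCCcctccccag
APOE held 2 GC boxes and APOC1 held 1, a motif found in 42.6% of 35116 promoter windows of this length. Neither window held TATAAA (10.7% of windows), CACGTG (6.34%), TGANTCA (6.57%), AGGTCA (12.1%), or 2 copies of AGGTCA in the same direction spaced by 4 bases, the LXR type (0.0142%), or by 1 base, the PPAR type (0.0171%), on either strand. The matches describe letters only. 5 of the 7 carriers had a window in the RefSeq table.

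The libraries held 459 to 1024 cells and 10621159 to 24240835 UMIs each, with medians of 20664 to 22503 UMIs per cell. VIM, a mesenchymal marker of this line, was detected in at least 99.7% of cells of every library, while ESR1 had at most 3 UMIs and PGR at most 2 in any library. ERBB2, which is not amplified in a triple-negative line, lay at 5.32 to 12.0 CPM. In all, 13 cell barcodes occurred in 2 libraries each, 26 cells, of which 1 was among the FABP4-high cells described below. Since the libraries held 1 cell line, no cell type lacking a carrier was at hand to measure free RNA against. Intervals in brackets are 95% and exact, and they cover counting error only.

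FABP4 lies on chromosome 8 at 82390654 to 82395471 on the minus strand of hg19, and FABP5 on the same chromosome at 82192771 to 82197012 on the plus strand, 193641 bases apart. APOE (chromosome 19, 45409048 to 45412650) and APOC1 (45417504 to 45422606) lie head to tail on the plus strand with 4853 bases between them. PLIN2 is at 19108373 to 19149288 on chromosome 9, CD36 at 79998891 to 80308593 on chromosome 7 and FABP3 at 31838100 to 31849697 on chromosome 1. All 7 are protein-coding genes.

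FABP4 was nearly silent in untreated cells and was highest in JQ1+paclitaxel. It was at 0.993 CPM before treatment, 2.17 in DMSO and 1.87 in paclitaxel, and at 12.1 in palbociclib. With JQ1 alone the level was 9.27 CPM (JQ1-A) or 8.92 CPM (JQ1-B), with JQ1+palbociclib 27.7 and with JQ1+paclitaxel 231 (223 to 239). The libraries thus fell into 4 levels: JQ1+paclitaxel, JQ1+palbociclib, then palbociclib with both JQ1 libraries, and last DMSO, paclitaxel and pre-treatment cells. Neighbours in this order whose counting intervals overlapped were palbociclib and JQ1-A, JQ1-A and JQ1-B, DMSO and paclitaxel, and paclitaxel and pre-treatment cells. The JQ1 libraries, the only measure of spread between libraries of a treatment, differed by 1.04-fold (0.832 to 1.30), against 24.9-fold (21.2 to 29.6) between JQ1+paclitaxel and JQ1-A. Without JQ1, paclitaxel was 0.864-fold DMSO (0.494 to 1.54). Palbociclib was 5.58-fold DMSO (3.62 to 9.01), and JQ1+palbociclib was 3.10-fold JQ1-B (2.63 to 3.68), so FABP4 lay above the comparison library for palbociclib both with and without JQ1, the DMSO library coming from the other experiment.

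The share of cells with a FABP4 UMI ranked the libraries in nearly the same way. It was 0.831% before treatment, 2.40% in DMSO, 2.53% in paclitaxel and 12.7% in palbociclib. It was 7.89% in JQ1-A, 8.18% in JQ1-B, 22.8% in JQ1+palbociclib and 36.2% (32.5 to 40.1) in JQ1+paclitaxel. After each cell was thinned to 10000 UMIs the share was 28.5% in JQ1+paclitaxel and 14.5% in JQ1+palbociclib, against 7.07% or less elsewhere. Against JQ1+palbociclib, JQ1+paclitaxel had 36.2% in place of 22.8% of cells with FABP4, but a CPM 8.35-fold higher (7.69 to 9.09), and its cells with FABP4 had a median of 3 UMIs against 2.

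**Figure D1:**
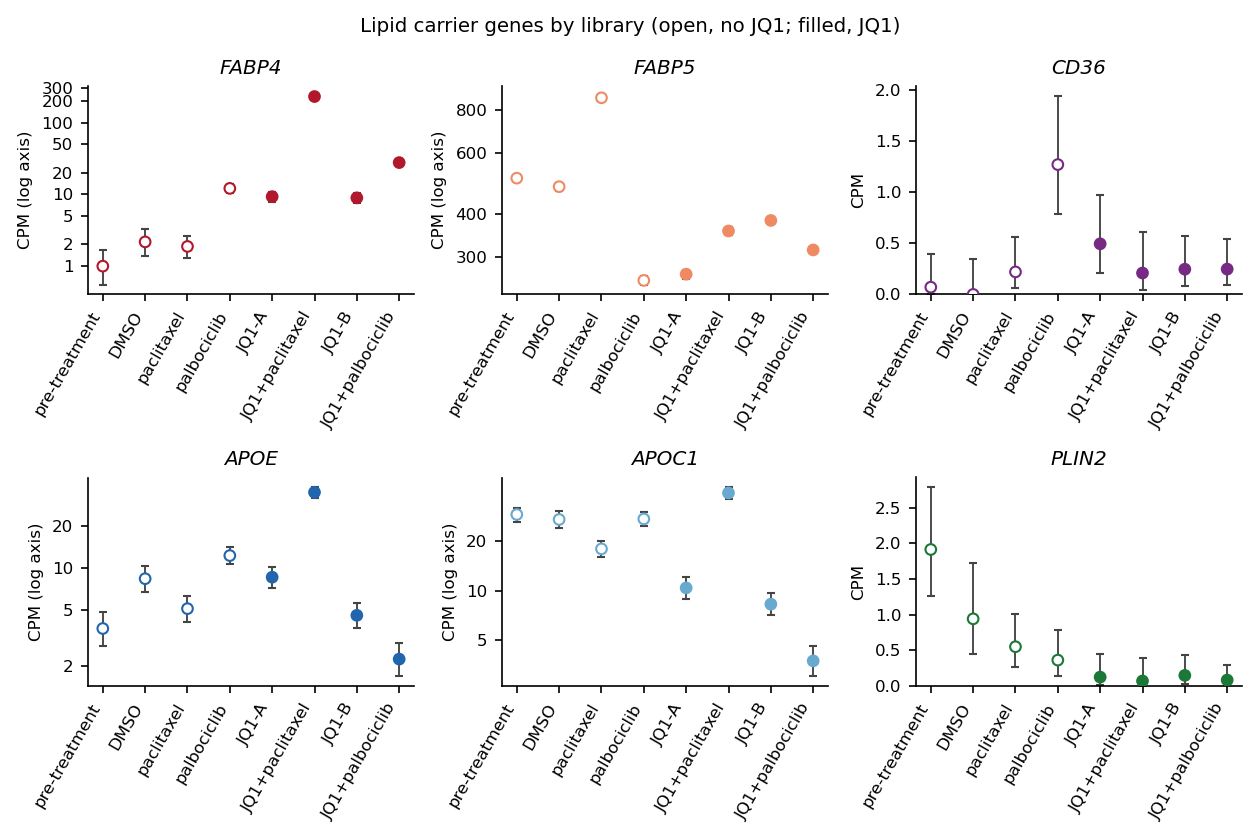
CPM of 6 carriers in each library, open circles without JQ1 and filled circles with JQ1, bars being exact Poisson 95% intervals; FABP4, FABP5, APOE and APOC1 are on log axes and CD36 and PLIN2 on linear ones. FABP4, APOE and APOC1 were highest in JQ1+paclitaxel (231, 34.8 and 39.0 CPM), FABP5 in paclitaxel (870 CPM), CD36 in palbociclib and PLIN2 before treatment.

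FABP4 in JQ1+paclitaxel was concentrated in few cells. Of 643 cells, 410 had no FABP4 UMI, 141 had 1 to 4, 28 had 5 to 9, 21 had 10 to 19, 26 had 20 to 49, 10 had 50 to 99 and 7 had 100 or more. The cells with at least 10 UMIs, called FABP4-high here, numbered 64 (9.95%, 7.75 to 12.5) and held 87.7% of the FABP4 UMIs of the library. Their median was 31 UMIs, the highest cell had 280, and 16 cells held 50% of all FABP4 UMIs. JQ1+palbociclib had 11 such cells, with a highest of 35 UMIs, palbociclib, JQ1-A and JQ1-B had 3 each, and the other 3 libraries had 0, which allows a share of up to 0.399% to 0.654%. FABP4-high cells were otherwise ordinary in depth: the median was 23487.5 UMIs against 20340 in the other cells, 3637 genes against 3522 and 4.16% mitochondrial UMIs against 4.80%. All 64 met the study's limits of 1 to 15% mitochondrial UMIs and at least 2000 genes.

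**Figure D2:**
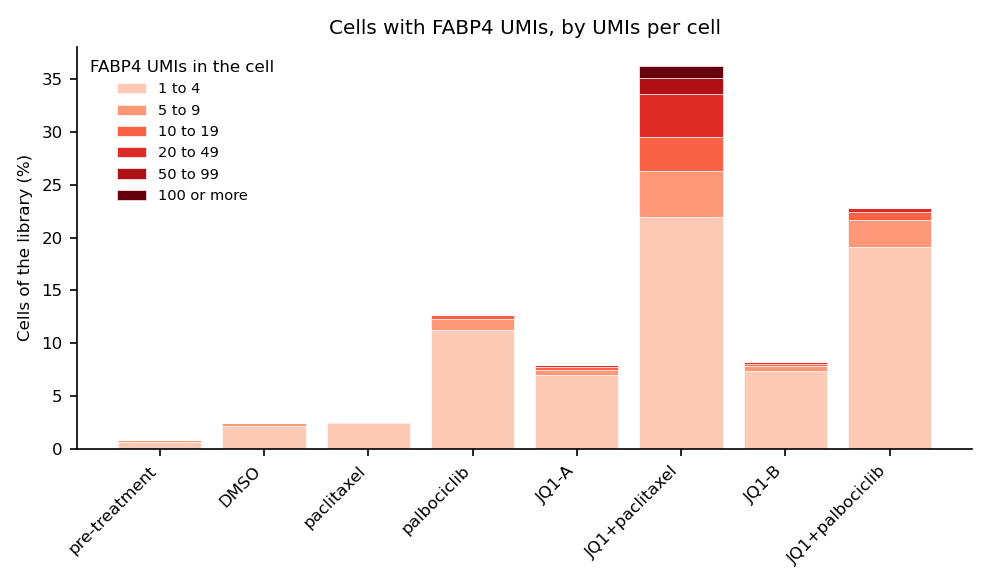
Share of the cells of each library (percent, vertical axis) with FABP4 UMIs, divided by the number of FABP4 UMIs in the cell. JQ1+paclitaxel reached 36.2% and JQ1+palbociclib 22.8%, and the classes of 50 or more UMIs occurred in JQ1+paclitaxel, with 10 and 7 cells.

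APOE was present at a low level in all 8 libraries. It was at 3.69 CPM before treatment, 8.38 in DMSO, 5.12 in paclitaxel and 12.3 in palbociclib. With JQ1 it stood at 8.59 CPM in JQ1-A, 4.58 in JQ1-B, 2.23 in JQ1+palbociclib and 34.8 (31.8 to 38.0) in JQ1+paclitaxel, so that libraries with JQ1 held both the highest and the lowest level. JQ1+paclitaxel was 4.05-fold JQ1-A (3.35 to 4.92) and 7.60-fold JQ1-B (6.08 to 9.58), while the JQ1 libraries differed from each other by 1.88-fold (1.43 to 2.47). JQ1+palbociclib was 0.486-fold JQ1-B (0.341 to 0.687), so the 2 combinations lay on opposite sides of their JQ1 libraries. A UMI of APOE was found in 3.12% to 13.1% of cells of the other libraries and in 17.7% (14.9 to 20.9) in JQ1+paclitaxel. In JQ1+paclitaxel 24 cells had at least 5 APOE UMIs and the highest had 51, against at most 8 such cells in any other library.

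APOC1, unlike FABP4, was readily detected in untreated cells. It was at 28.9 CPM before treatment, 26.9 in DMSO, 17.9 in paclitaxel and 27.1 in palbociclib. With JQ1 the level was 10.4 CPM in JQ1-A, 8.28 in JQ1-B, 3.75 in JQ1+palbociclib and 39.0 (35.8 to 42.3) in JQ1+paclitaxel. Of the libraries with JQ1, 3 lay below all 4 without it and JQ1+paclitaxel lay above them. JQ1-A was 0.386-fold DMSO (0.317 to 0.468), and JQ1+paclitaxel was 3.75-fold JQ1-A (3.15 to 4.49) but 1.45-fold DMSO (1.25 to 1.68). The share of cells with a UMI was 28.0% (24.6 to 31.6) in JQ1+paclitaxel, beside 28.1% to 35.5% in the libraries without JQ1, while it was 15.2% in JQ1-A, 13.7% in JQ1-B and 7.91% in JQ1+palbociclib. The excess in CPM again came with more UMIs in single cells: 12 cells of JQ1+paclitaxel had at least 10 APOC1 UMIs, and at most 2 did in any other library.

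FABP5 was expressed in most cells of every library, 89.7% to 99.3%. It was at 509 CPM before treatment, 481 in DMSO, 870 in paclitaxel and 257 in palbociclib. The JQ1 libraries held 268 CPM in JQ1-A, 383 in JQ1-B, 357 in JQ1+paclitaxel and 315 in JQ1+palbociclib. The groups overlapped, with palbociclib the lowest of the 8. Across the 4 libraries with JQ1 against the 4 without, FABP5 had a log2 fold change of -0.36 ± 0.20 (SE) and did not pass (edgeR quasi-likelihood test with terms for the 3 drugs, adjusted p = 0.192); in that fit 37.6% of 9288 genes were called, 19.7% lower and 17.8% higher. Without palbociclib (-0.55) or without JQ1+palbociclib (-0.58) it was called lower. Paclitaxel alone was 1.81-fold DMSO (1.75 to 1.87) and JQ1+paclitaxel 1.33-fold JQ1-A (1.28 to 1.39), whereas JQ1-A was 0.698-fold JQ1-B (0.673 to 0.725), a difference of similar size between libraries of 1 treatment.

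PLIN2, CD36 and FABP3 were at the limit of detection. PLIN2 had 27, 10, 10 and 6 UMIs in pre-treatment cells, DMSO, paclitaxel and palbociclib, and 2, 3, 1 and 2 in JQ1-A, JQ1-B, JQ1+paclitaxel and JQ1+palbociclib. In CPM it was lower in every library with JQ1 (0.0697 to 0.148) than in any without (0.362 to 1.91), as were 15.4% of the 18955 genes. In the fit with no filter on low counts PLIN2 fell by 2.77 ± 0.55 (SE) on the log2 scale with JQ1 (edgeR, adjusted p = 0.00241), a value that rests on 8 UMIs against 53; with the experiment as a further term the call was lost (adjusted p = 0.0618), and leaving out each library in turn kept it. CD36 had 21 UMIs in palbociclib and 8 or fewer in every other library, 0 of them in DMSO. FABP3 had 1 UMI before treatment, 3 in JQ1+palbociclib and none in the other 6 libraries, which allows up to 0.148 to 0.282 CPM by the 3-count limit.

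In JQ1+paclitaxel the same cells carried several carriers. FABP4, APOE and APOC1 were all detected in 47 of 643 cells, against 0 to 8 cells in any other library. With at least 5 UMIs of each, 7 cells of JQ1+paclitaxel qualified and 0 elsewhere. FABP4 and APOE were found in more cells of JQ1+paclitaxel (36.2% and 17.7%) than of any other library, which raises such counts. The 3 genes were also selected on their level in JQ1+paclitaxel. No product of shares was taken for all 3, so these counts are a description. In cells thinned to 10000 UMIs, 40 cells held both FABP4 and APOE where the product of the shares gave 22.2, 52 held FABP4 and APOC1 where it gave 28.8, and 41 held APOE and APOC1 where it gave 12.9. FABP4 with APOC1 exceeded the product in 5 other libraries as well, in palbociclib with 16 cells against 9.12 (1.75-fold, beside 1.81-fold in JQ1+paclitaxel), and in paclitaxel (1.88-fold), JQ1-A (1.60-fold), DMSO (1.25-fold) and pre-treatment cells (3.83-fold) with 2 to 4 cells each. It lay below the product in JQ1-B (0.822-fold, 3 cells) and JQ1+palbociclib (0.790-fold, 4 cells). Without thinning, JQ1-B (1.64-fold, 16 cells) and JQ1+palbociclib (1.09-fold, 20 cells) lay above the product and DMSO (0.835-fold, 3 cells) below it. The remaining libraries lay above it either way. For JQ1-B, JQ1+palbociclib and DMSO the side thus depended on thinning. Of thinned cells of JQ1+paclitaxel with APOE 52.6% had APOC1, and of those without 11.3%. In thinned cells APOE and APOC1 exceeded the product in all 8 libraries, by 1.79-fold in JQ1-B to 5.57-fold in JQ1+palbociclib, the latter from 2 cells. The counting interval lay above 1 in paclitaxel (1.75 to 5.39), JQ1+paclitaxel (2.28 to 4.31) and palbociclib (1.54 to 3.52). It included 1 in pre-treatment cells, DMSO, JQ1-A, JQ1-B and JQ1+palbociclib. In these thinned cells FABP4 with APOE exceeded the product in 4 libraries and not in the other 4, where 0 or 1 cell held both. Without thinning, FABP4 with APOE also did so before treatment and in JQ1-B. The cells are not replicates, and these ratios carry no test.

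FABP4-high cells of JQ1+paclitaxel had more APOE, APOC1 and FABP5 than its other cells. With FABP4 UMIs taken out of the totals, APOE was at 129 CPM (112 to 148) in the 64 FABP4-high cells and 22.9 (20.3 to 25.6) in the other 579, 5.64-fold (4.70 to 6.77). APOC1 was at 171 CPM against 22.3, 7.65-fold (6.45 to 9.06), and FABP5 at 598 against 327, 1.83-fold (1.70 to 1.96). APOE did not step up with low FABP4: it was at 23.1 CPM in cells without FABP4, 22.3 in cells with 1 to 9 UMIs and 129 at 10 or more. APOC1 was at 20.2, 27.1 and 171 CPM and FABP5 at 311, 364 and 598 CPM in the same classes. APOC1 was found in 19.02%, 30.8% and 78.1% of these cells and APOE in 12.9%, 18.3% and 46.9%. Outside the FABP4-high cells the other cells of JQ1+paclitaxel still had more APOE (22.9 CPM) than JQ1-A as a whole (8.59 CPM). PLIN2 had 0 UMIs in the FABP4-high cells and CD36 had 1. 1 cell held many of the APOE UMIs, and without the FABP4-high cell with most APOE the ratio was 4.30. Having at least 10 FABP4 UMIs did not bring the apolipoproteins in every cell: the cell with 280 FABP4 UMIs had 0 of APOE and 1 of APOC1, the next, with 197, had 27 and 6, and the fourth, with 131, had 16 and 24.

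**Figure D3:**
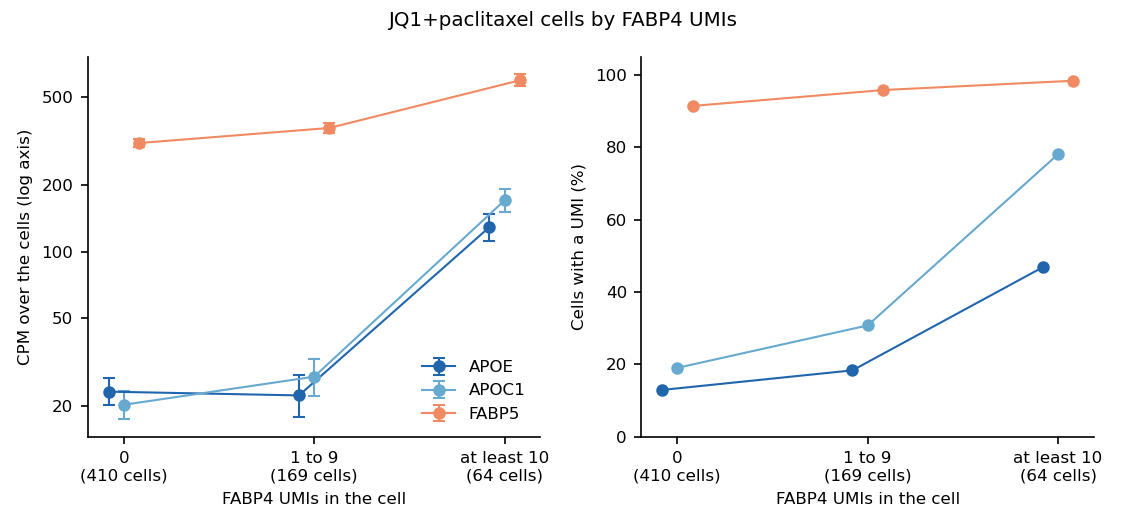
APOE, APOC1 and FABP5 in cells of JQ1+paclitaxel grouped by their FABP4 UMIs, as CPM over the cells on a log axis with exact Poisson 95% intervals (left) and as the percent of cells with a UMI (right). APOE and APOC1 were near 20 CPM in cells with 0 or 1 to 9 FABP4 UMIs and at 129 and 171 CPM at 10 or more.

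FABP5 was higher in cells with FABP4 in the 5 libraries that could be split at 3 FABP4 UMIs, while the apolipoproteins differed from library to library. A lower limit of 3 FABP4 UMIs, chosen after the values were seen, gave 21 cells in palbociclib, 19 in JQ1-A, 20 in JQ1-B, 76 in JQ1+palbociclib and 118 in JQ1+paclitaxel. FABP5 was higher in these cells than in the rest by 2.15-fold (1.93 to 2.39) in palbociclib, 2.20-fold (1.94 to 2.49) in JQ1-A, 1.65-fold (1.48 to 1.84) in JQ1-B, 1.69-fold (1.58 to 1.80) in JQ1+palbociclib and 1.66-fold (1.56 to 1.76) in JQ1+paclitaxel. The remaining libraries had 2 or 3 such cells and were divided at 1 FABP4 UMI instead. In paclitaxel FABP5 was at 892 CPM (815 to 974.6) in the 19 cells with FABP4 and at 869 (855 to 883) in those without, and these intervals overlapped. It was at 550 CPM (472 to 638) against 478 (465 to 492) in DMSO, where they overlapped too, and at 693 (568.2 to 838) against 507 (495 to 519) before treatment, from 5 cells. APOC1 was 5.30-fold higher (4.47 to 6.30) in JQ1+paclitaxel, and the intervals of the other 4 libraries all included 1. APOE was 3.44-fold higher (2.87 to 4.12) in JQ1+paclitaxel and 4.89-fold (2.80 to 8.06) in JQ1-A, where 18 UMIs in 5 cells carried it, and the other 3 intervals included 1. The keratin KRT8 was also higher in these cells, by 1.64-fold (1.48 to 1.81) in palbociclib, 1.17-fold (1.002 to 1.36) in JQ1-A, 1.82-fold (1.62 to 2.03) in JQ1-B, 1.70-fold (1.58 to 1.82) in JQ1+palbociclib and 1.74-fold (1.64 to 1.85) in JQ1+paclitaxel. It was lowest in JQ1-A, where the FABP5 ratio was highest. Of the other markers of the line, KRT18 was 1.37-fold to 1.49-fold higher in 4 libraries and 1.12-fold (0.966 to 1.29) in JQ1-A, where the interval included 1. KRT7 was 1.17-fold to 1.98-fold higher, each interval above 1, while CD44 lay between 0.730-fold and 1.06-fold and VIM between 0.970-fold and 1.22-fold. The part of the keratins in these ratios was not tested.

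**Figure D4:**
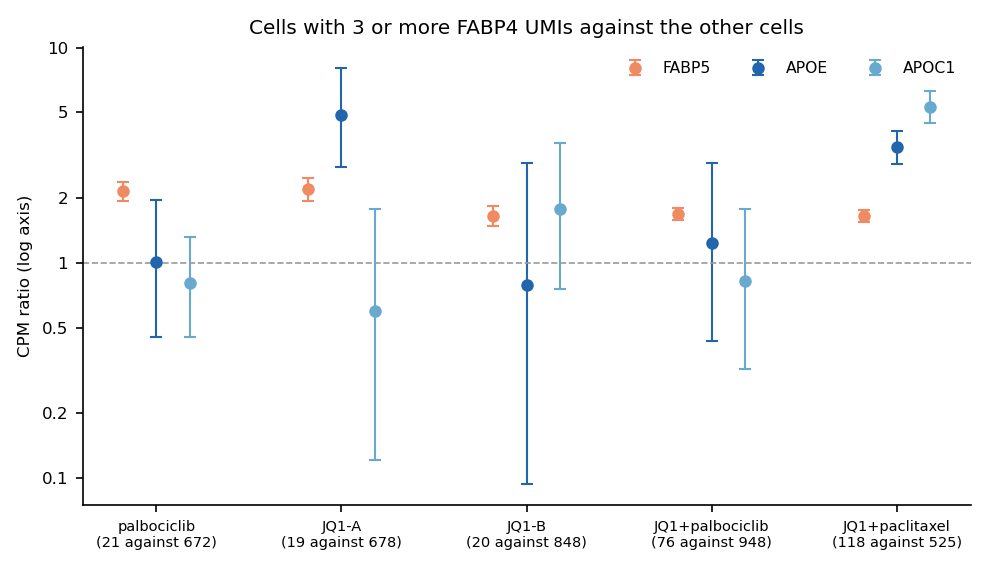
Ratio of CPM, on a log axis, between cells with 3 or more FABP4 UMIs and the other cells of 5 libraries, with exact 95% counting intervals and the number of cells under each name. FABP5 lay between 1.65 and 2.20 in all 5, while APOC1 was above 1 beyond its interval in JQ1+paclitaxel alone.

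Of 4330 genes with at least 20 CPM in FABP4-high or other cells, 1.52% were at least 2-fold higher in FABP4-high cells and 2.79% at least 2-fold lower, in 1 library with no replicate. ADIRF, SNCG, PDK4 and DIO2 passed the 20 CPM limit only in the FABP4-high cells. ADIRF, an adipogenesis regulator, had the largest ratio, 172 against 12.9 CPM or 13.3-fold (11.0 to 16.3). SAA1, an acute-phase apolipoprotein of HDL, was 12.2-fold (10.7 to 14.1), PDK4, the kinase that turns off pyruvate dehydrogenase when fatty acids are burned, 10.5-fold (7.02 to 15.7), SNCG, a synuclein, 8.95-fold (5.31 to 15.1) and DIO2, the thyroxine deiodinase, 6.65-fold (4.43 to 9.94) higher. APOC1 was also among the 6. ADIRF was found in 64.1% of FABP4-high cells and 9.67% of the others, and PDK4 in 43.8% and 5.70%. The genes with the smallest ratios were GS1-600G8.5 (7.44 against 74.6 CPM), BEX1 (2.48 against 24.5, its 4 UMIs all in 1 FABP4-high cell), FAM133A (4.34 against 29.3) and LINC01116 (3.10 against 20.1). Each of them passed the 20 CPM limit only in the other cells. The limit thus favoured their small ratios, as it favoured the large ones of ADIRF, SNCG, PDK4 and DIO2.

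These genes did not follow FABP4 from library to library in 1 way. ADIRF was at 0.847 to 5.56 CPM in the 4 libraries without JQ1 and at 7.01 to 30.7 with it. It rose with JQ1 by 2.81 ± 0.66 (SE) on the log2 scale (edgeR, adjusted p = 0.0131). That call was lost without DMSO (adjusted p = 0.0512) and with the experiment as a further term (adjusted p = 0.0909). ADIRF was picked on cells of JQ1+paclitaxel, 1 of the libraries with JQ1, so the fit was not independent of that choice. Without JQ1+paclitaxel the rise of ADIRF was 2.03 (edgeR, adjusted p = 0.021). PDK4 was at 0.0709 to 0.967 CPM without JQ1 and at 1.18 to 7.46 with it, below the limit for the test. SAA1 was highest in palbociclib, 257 CPM, where FABP4 was at 12.1. DIO2 fell by 2.61 ± 0.41 (SE) with JQ1 (edgeR, adjusted p = 0.00301), being at 17.8 to 32.3 CPM without and 1.53 to 7.32 CPM with it. At the limit of 3 FABP4 UMIs, ADIRF was 12.5-fold higher (9.99 to 15.6) in JQ1+paclitaxel and 2.13-fold (1.38 to 3.17) in JQ1+palbociclib, and the intervals in palbociclib, JQ1-A and JQ1-B included 1. PDK4 was 6.43-fold higher (2.77 to 13.3) in JQ1-A, from 9 UMIs in 3 cells, and had 0 UMIs in such cells of JQ1-B and JQ1+palbociclib. SNCG was 4.49-fold higher (2.58 to 7.41) in palbociclib, from 19 UMIs in 4 cells, and SAA1 was 0.823-fold there (0.697 to 0.967). BEX1 went the other way from JQ1+paclitaxel (0.284-fold, 0.173 to 0.442), being 3.19-fold (2.45 to 4.09) in JQ1-A, 2.097-fold (1.45 to 2.95) in JQ1-B and 1.40-fold (1.1998 to 1.62) in JQ1+palbociclib.

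**Figure D5:**
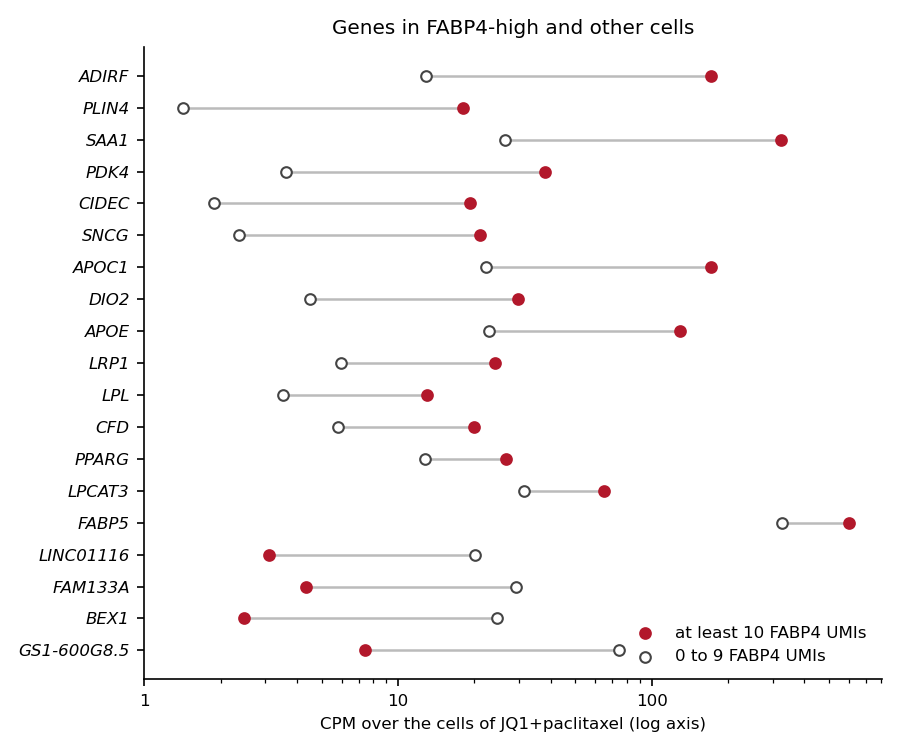
CPM, on a log axis, of genes in FABP4-high cells (filled) and the other cells (open) of JQ1+paclitaxel, ordered by their ratio. ADIRF had the largest ratio (172 against 12.9 CPM) and GS1-600G8.5 the smallest (7.44 against 74.6 CPM); CIDEC, PLIN4, LPL and CFD were under 20 CPM in both classes.

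Genes of lipid handling were summed over each list, with no limit on their level. PPAR receptors and targets came to 465 CPM in FABP4-high cells against 349 in the others, LXR targets to 395 against 322 and lipid droplet genes to 383 against 322. Uptake genes came to 444 CPM against 578, and lipoprotein receptors with lysosomal lipid genes to 784 against 876. Of PPAR genes the receptor PPARG was at 26.7 against 12.8 CPM (2.08-fold, 1.45 to 2.93). At the limit of 3 FABP4 UMIs, PPARG was 2.14-fold higher (1.59 to 2.88) in JQ1+paclitaxel. In palbociclib, JQ1-A, JQ1-B and JQ1+palbociclib it lay between 0.987-fold and 1.34-fold, and each interval included 1. PPARG, PDK4 and LRP1 reached 20 CPM only in the FABP4-high cells, so that their ratios were favoured by that limit. The fatty acid oxidation enzymes ACADVL and HADHB were 1.57-fold (1.35 to 1.82) and 1.65-fold (1.36 to 2.002) higher. In cells with 3 or more FABP4 UMIs, ACADVL was also higher in palbociclib (1.46-fold, 1.11 to 1.90) and JQ1-B (1.58-fold, 1.19 to 2.06). So it was in JQ1+palbociclib (1.31-fold, 1.13 to 1.52), while the interval in JQ1-A included 1. The intervals of HADHB in palbociclib, JQ1-A, JQ1-B and JQ1+palbociclib included 1. ANGPTL4, a PPAR target that inhibits lipoprotein lipase, was at 0.620 CPM, from 1 UMI, against 4.32 (0.144-fold, 0.00357 to 0.834). At the limit of 3 FABP4 UMIs, ANGPTL4 was 1.33-fold (0.671 to 2.48) in JQ1+paclitaxel and 2.29-fold (1.06 to 4.39) in palbociclib. Its intervals in JQ1-A, JQ1-B and JQ1+palbociclib included 1. Of 6 LXR targets with at least 20 CPM in either class, 1 was at least 2-fold higher and 0 at least 2-fold lower. Over all 4330 genes at that limit the shares were 1.52% and 2.79%. The median ratio of the LXR targets was 1.275, against 1.001 over all these genes. LPCAT3, a phospholipid acyltransferase, was 2.07-fold (1.66 to 2.58), and SREBF1 was 1.54-fold (1.25 to 1.88). The intervals of the others included 1: ABCA1, the cholesterol exporter, was 1.36-fold (0.932 to 1.93) and NR1H2 1.19-fold (0.922 to 1.52). MYLIP was 1.0005-fold (0.691 to 1.41) and SCD 0.984-fold (0.858 to 1.13). Of these targets ABCA1 reached 20 CPM only in the FABP4-high cells (23.0 against 16.9 CPM), which favoured its ratio. With the split at 3 FABP4 UMIs, LPCAT3 was 1.88-fold (1.19 to 2.83) in JQ1-A and 1.40-fold (1.08 to 1.80) in JQ1+palbociclib. Its intervals in palbociclib and JQ1-B included 1. LRP1, a receptor for APOE, was at 24.2 against 5.97 CPM (4.05-fold, 2.68 to 6.04). CIDEC and PLIN4, droplet proteins of adipocytes, lay at 19.2 against 1.89 and 18.0 against 1.41 CPM, under the 20 CPM limit, and so did LPL, at 13.0 against 3.54. In JQ1+palbociclib, CIDEC was 12.8-fold higher (4.23 to 40.3) in cells with 3 or more FABP4 UMIs, from 9 UMIs in 8 cells. Its intervals in palbociclib, JQ1-A and JQ1-B included 1, as did those of PLIN4 in palbociclib, JQ1-A, JQ1-B and JQ1+palbociclib. CAV1, of the caveolae, was 0.600-fold (0.538 to 0.667) in FABP4-high cells of JQ1+paclitaxel. With 3 or more FABP4 UMIs it was 0.713-fold (0.660 to 0.769) there. In the other libraries CAV1 was higher in such cells, by 1.80-fold (1.61 to 2.01) in JQ1-A, 1.46-fold (1.33 to 1.61) in palbociclib, 1.42-fold (1.27 to 1.59) in JQ1-B and 1.22-fold (1.14 to 1.30) in JQ1+palbociclib. TOMM40, which lies beside APOE, was 1.49-fold higher (1.30 to 1.70), and the neighbours of FABP4 and FABP5 summed to 159 CPM against 161.

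Markers of adipocytes summed to 102 CPM in FABP4-high cells and 26.4 in the others, with library totals of 14.7 to 41.0 CPM. Of the 11 markers, ADIPOQ and LEP among them, 9 were in the table, which held genes detected in at least 3 cells. PLIN1 and CEBPA had 0 UMIs in FABP4-high cells, and no level is given for ADIPOQ and LEP. PPARG, CFD (19.9 against 5.81 CPM), CIDEC, PLIN4 and LPL made up most of the sum. Macrophage markers summed to 23.6 CPM against 11.2, all of it CD68 in FABP4-high cells, with CD14, CSF1R, PTPRC, MSR1 and FCER1G at 0. Endothelial markers summed to 0.620 CPM against 0.314. The part of other cell types in the FABP4-high cells was not tested. VIM was at 4436 CPM in FABP4-high cells and 4511 in the others.

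Across the 4 libraries with JQ1 and the 4 without, genes of the lists used above passed the test in both directions (edgeR, adjusted over 9288 genes; the median of all genes was -0.003). Of all genes 37.6% were called, 17.8% higher and 19.7% lower, and the counts below stand beside these shares. Other apolipoproteins (median -0.92) had 1 higher and 5 lower of 6: CLU rose by 1.07 ± 0.21 (SE, log2), and the inner-membrane proteins APOO (-1.06 ± 0.12) and APOOL (-1.27 ± 0.19) and the intracellular APOL3 (-1.75 ± 0.28) fell. FABP6, the ileal bile acid carrier and the single other binding protein tested, fell by 2.03 ± 0.21 (adjusted p = 0.00099). Lipid droplet genes (median 0.10) had 4 higher and 2 lower of 10, among them PNPLA2, the triglyceride lipase, at 1.11 ± 0.12 and its coactivator ABHD5 at -0.74 ± 0.12. Uptake genes (median -0.23) had 0 higher and 3 lower of 8, with the acyl-CoA synthetase ACSL5 at -2.19 ± 0.26. Receptor and lysosomal genes (median 0.20) had 2 higher of 10, NPC2 at 0.87 ± 0.09 and SORT1 at 1.47 ± 0.27. LXR targets (median 0.56) had 1 higher of 7, MYLIP at 0.63 ± 0.17, a call lost without any 1 of pre-treatment, DMSO, JQ1-A and JQ1-B. PPAR genes (median 0.32) had 4 higher and 1 lower of 12: RXRA, the partner of PPARG, rose by 1.12 ± 0.15, and PPARG itself fell by 0.87 ± 0.17 (adjusted p = 0.00607). Neighbours of APOE (median -0.47) had 1 higher and 2 lower of 7, and neighbours of FABP4 and FABP5 (median 0.007) had 3 higher and 2 lower of 8. With the experiment as a further term, 463 genes in all were called, and of the genes named here APOO, APOL3, FABP6, PNPLA2, ACSL5, NPC2 and RXRA kept their call, while CLU, APOOL, ABHD5, SORT1, MYLIP and PPARG lost it.

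Over the 8 libraries the genes whose levels were most like FABP4 were JRKL (Pearson r of log2(CPM + 1) = 0.94), FAM175A (0.92) and HELQ (0.91). For APOE they were P4HTM (0.91), NHLRC3 (0.90) and RPL41 (0.90), and for APOC1 NDUFS4 (0.96), PLAC8 (0.96) and HNRNPA1L2 (0.95). APOE and APOC1 had an r of 0.68, FABP4 and APOE 0.61 and FABP4 and APOC1 -0.02. Each r was over 8 libraries that share treatments and 1 cell line, with 9287 genes compared, and JQ1+paclitaxel was the highest library for each of the 6 genes nearest to FABP4 and APOE.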

How the data were processed

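Single-cell RNA libraries of SUM159 cells were prepared by the authors with droplet chemistry that reads the 3' end of transcripts. Per the labels' processing notes, Cell Ranger and Seurat were used with hg19. The authors deposited whole-number UMI counts per gene and cell, not normalized, with genes detected in at least 3 cells, for 5738 cells and 18955 genes. A file of cell annotations gave each cell's library. Of the cells 5575 met the study's filter, and all were kept.

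UMI counts were summed per library and divided by the library total (CPM). Total UMI counts of 10621159 to 24240835 per library set the precision, and intervals were exact Poisson for levels, exact binomial for shares and exact conditional binomial for ratios. Detection was also computed in cells thinned to 10000 UMIs, without the 210 cells below that depth. JQ1 exposure was tested with the edgeR 4.0.16 quasi-likelihood test in R 4.3.3 (TMM, genes of at least 5 CPM in at least 2 libraries, terms for JQ1, paclitaxel and palbociclib, Benjamini-Hochberg over all genes, threshold 0.05), and DESeq2 1.42.0 served as an alternative. The p-values measure the spread between libraries of different treatments, since separate cultures were mixed. No doublet caller was run, so doublets of unlike cells of the line were not removed, and an alternative left out cells above the 95th percentile of UMIs. Coordinates were read from GENCODE for hg19 and promoters from RefSeq for GRCh38.p14.

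The genes named were the 7 carriers, for each list at most 4 genes called for JQ1 with the smallest adjusted p, the 6 genes of at least 20 CPM with the largest and the 4 with the smallest ratio in FABP4-high cells, and the 3 genes most like FABP4, APOE and APOC1. Genes named beyond these from the lists (among them PPARG, LRP1, LPCAT3, CAV1, CIDEC, PLIN4 and the keratins in FABP4-high cells) were singled out after their values were seen. The members and lists were chosen with earlier results of these data known.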

Additional observations from a re-analysis of the deposited data

Results flagged for a closer look

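FABP4 in JQ1+paclitaxel, at 231 CPM, stood far from the other 3 libraries with JQ1, and FABP4 in palbociclib, at 12.1 CPM, far from the other 3 without JQ1. FABP4 was selected on its level in JQ1+paclitaxel, so these marks are a description and no test. The same rule, applied to CPM in 14 groups of 4 libraries, marked CD36 in JQ1-A (0.494 CPM, 8 UMIs), FABP3 in JQ1+palbociclib (0.124 CPM, 3 UMIs) and FABP3 before treatment (0.0709 CPM, 1 UMI). Chance marks about 1 in 20 groups, a rate that does not hold for the selected FABP4, and the groups held different treatments rather than replicates.

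APOE and APOC1 lay on opposite sides of their comparison libraries for paclitaxel with and without JQ1. JQ1+paclitaxel was 4.05-fold JQ1-A for APOE and 3.75-fold for APOC1, while paclitaxel alone was 0.611-fold DMSO (0.452 to 0.826) and 0.664-fold (0.565 to 0.781). For palbociclib APOE went the other way, at 0.486-fold JQ1-B with JQ1 and 1.46-fold DMSO without it, the DMSO library being from the other experiment. JQ1-A and JQ1-B, of 1 treatment, differed by 1.88-fold for APOE and 1.25-fold for APOC1, a spread that the counting intervals do not cover. With 1 library per treatment the differences for paclitaxel and palbociclib were not tested, and the causes of the flagged values were not tested.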

How the results depend on the processing

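The number of genes called for JQ1 was 3488, and it was 463 with the experiment as an added term; leaving out 1 library gave 1760 (without JQ1-A) to 4190 (without palbociclib), and it was 1970 without the pre-treatment library, 2269 without DMSO and 2032 without JQ1-B. That term leaves fewer residual degrees of freedom. The share of JQ1+paclitaxel cells with high FABP4 was 14.3% at 5 UMIs and 6.69% at 20 UMIs, which moves by construction, and 9.82% in thinned cells at 5 UMIs. The FABP4 ratio to JQ1-A stayed between 24.9 and 26.3 under the study's filter, without the deepest cells and against JQ1-B. The APOE ratio in FABP4-high cells ranged from 4.28 (5 UMIs) to 7.40 (thinned), APOC1 from 6.30 to 8.90 and FABP5 from 1.74 to 1.92; the alternative without the cell richest in the gene was added after seeing the data. APOE with APOC1 in JQ1+paclitaxel cells exceeded the product of shares by 2.22-fold without thinning, against 3.18-fold. Over 80 genes with a JQ1 test and 1036 alternatives, 914 stayed on their side of the threshold, 85 calls were lost, 37 were gained and 0 calls changed direction. No paired analysis was possible because the groups share no number but 1, which was given in accession order and pairs no samples. Genes with few UMIs, such as PLIN2, CD36 and FABP3, are limited by depth.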
